A study of Mus musculus with 4 samples.

Results

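The 9 transcription factor genes *Evx1*, *En1*, *Foxn4*, *Sox14*, *Gata2*, *Gata3*, *Sim1*, *Lhx1* and *Lhx5* mark interneuron classes of the ventral spinal cord, and they were followed in cultures directed towards cervical motor neurons (MNs). They were chosen by name from textbook markers of the V0 to V3 classes, and all 9 were found among the 23420 gene symbols of the count files. The sample titles name ESCs, while the source and cell type labels name MNs made from them, and the latter is followed here. The libraries came from E14, a mouse embryonic stem cell line, which was grown into embryoid bodies and patterned with retinoic acid and a smoothened agonist. WT cultures (genotype: wild type) were set against *Patz1* KO cultures (genotype: *Patz1* -/-), with 2 libraries each, and both groups share the E14 background and the patterning protocol. The KO cells were made from E14 with Cas9 and a guide against *Patz1*, a zinc finger gene, and were grown from single clones. The labels do not say which clone gave which library, so genotype and clone cannot be told apart. Library totals went from 14769104 to 23881522 counts. *Patz1* transcripts were still counted in KO (SE is the standard error throughout), with 1363 and 1499 counts in WT and 1154 and 714 in KO (log2 fold change -1.04, SE 0.0951, adjusted p = 1.09e-07).

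In the developing spinal cord, progenitors along the dorsoventral axis give rise to separate neuron classes under graded Sonic hedgehog signalling. Domains p0, p1, p2 and p3 produce V0, V1, V2 and V3 interneurons, and the pMN domain between p2 and p3 produces MNs. Each class turns on its own transcription factors after leaving the cell cycle. Protocols that use retinoic acid and a smoothened agonist aim at the pMN domain, and neighbouring classes are a known side product of such cultures.

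In *Patz1* KO cultures, *Lhx5*, *Evx1* and *En1* were higher, *Sim1* was lower, and *Gata2*, *Gata3*, *Lhx1* and *Foxn4* did not pass the test. The rises were 8.84-fold for *Lhx5*, 7.08-fold for *Evx1* and 3.12-fold for *En1*, and *Sim1* was 1.5-fold lower. The values come from edgeR's quasi-likelihood fit over 14269 genes, with a Benjamini-Hochberg adjusted p below 0.05 taken as a call. *Sox14* had too few counts to be tested. Of all genes tested, 24.1% were called higher and 23.8% lower, and the 3 of 8 factors higher and 1 of 8 lower are no result about the group against that background. The median log2 fold change was 0.23 over the 8 factors and -0.001 over all genes tested. The filter kept genes with at least 0.604 CPM (counts per 1000000 counts of the library) in 2 libraries. *Evx1* passed it through the KO libraries alone, and *En1* and *Lhx5* passed with 1 WT library below it, so these genes entered the test through the group in which they were high. In bulk RNA, more cells of a class and more RNA per cell cannot be told apart.

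**Figure D1:**
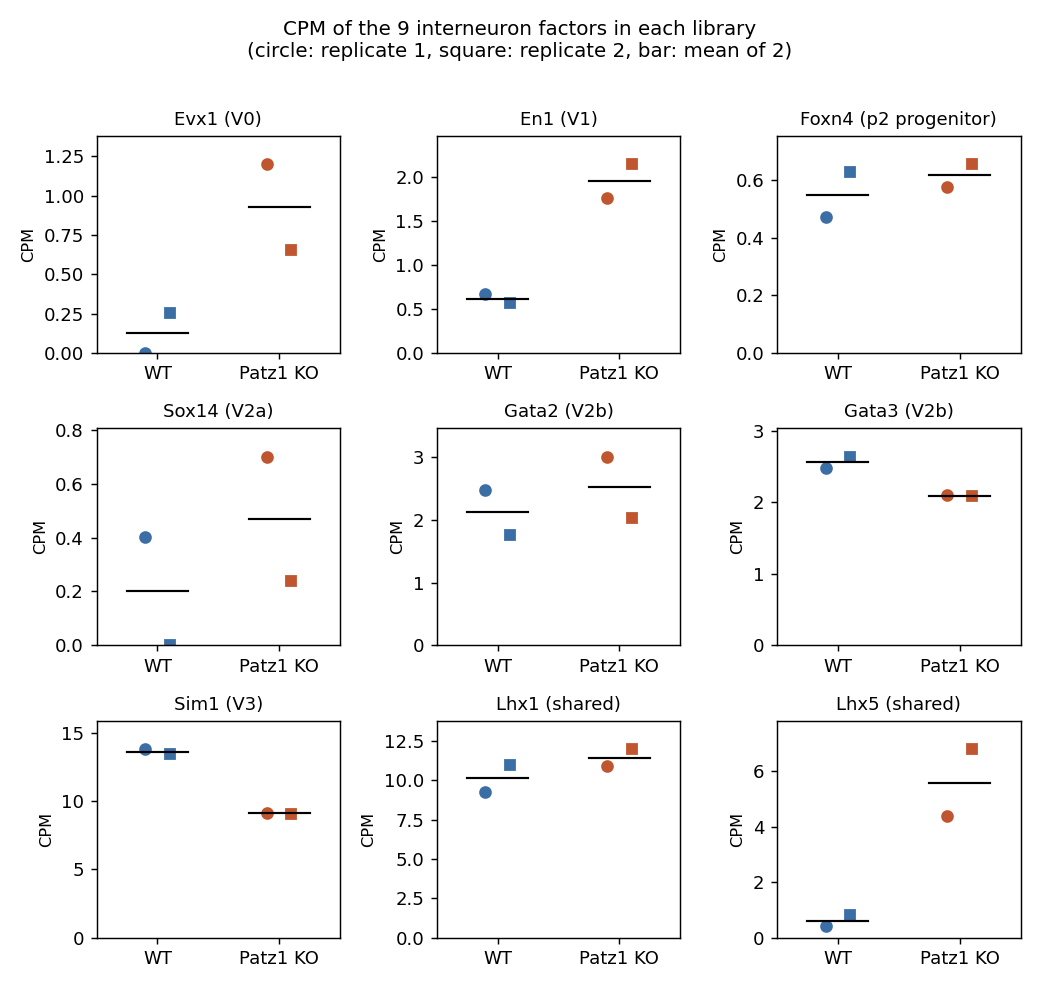
CPM on TMM-scaled library sizes (linear axes from 0) of each factor in the 2 WT and 2 *Patz1* KO libraries, with the mean as a bar. *Lhx5*, *Evx1* and *En1* lie higher in both KO libraries than in either WT library, *Sim1* and *Gata3* lie lower, and the groups overlap for the other 4 genes.

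Both KO libraries lay above both WT libraries in CPM for *Evx1*, *En1* and *Lhx5*, and below them for *Sim1* and *Gata3*. Among all genes tested, 37.0% were separated in the upward and 37.2% in the downward direction. *Foxn4*, *Sox14*, *Gata2* and *Lhx1* had overlapping groups.

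*Lhx1* and *Lhx5* encode LIM homeodomain proteins that V0, V1 and several other inhibitory classes share, and *Lhx1* also marks MNs of the lateral column that projects to the dorsal limb. *Lhx5* lies on chromosome 5 of GRCm38 (the assembly of mm10) from 120431699 to 120441223. The WT libraries held 6 and 13 of its reads, and the *Patz1* KO libraries 106 and 114, with no overlap between the groups. Its level went from 0.61 ± 0.293 CPM in WT to 5.58 ± 1.71 CPM in KO (SD, n = 2 each), and the fitted log2 fold change was 3.14 (SE 0.373, adjusted p = 2.2e-06, edgeR quasi-likelihood). By log2 fold change it ranked 20 among the 3445 genes called higher in KO. Without WT replicate 2 the value was 3.76 and without WT replicate 1 it was 2.74. Its exons share 69 bases with the antisense gene *Gm27199*, and the strand setting of the counting is not given in the sources used here.

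*Lhx1*, on chromosome 11 from 84518284 to 84525535, was the most abundant of the 9 genes per kilobase of exon. Counts were 138 and 175 in WT and 265 and 201 in KO, or 10.1 ± 1.23 and 11.5 ± 0.744 CPM (SD, n = 2 each), and the groups overlapped in CPM. Its log2 fold change was 0.17 (SE 0.159, adjusted p = 0.396), and it stayed between 0.06 and 0.31 over the alternatives. These paralogues were also set against each other within each library, as the log2 ratio of *Lhx5* to *Lhx1* in RPKM (CPM per kilobase of exon). For WT this ratio was -3.92 and -3.15, and for KO it was -0.72 and -0.22. The mean difference of 3.07 was larger than the spread within either group (SD 0.55 and 0.36). With 2 libraries against 2 an exact permutation test cannot go below p = 0.333, so no call was made from this ratio.

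**Figure D2:**
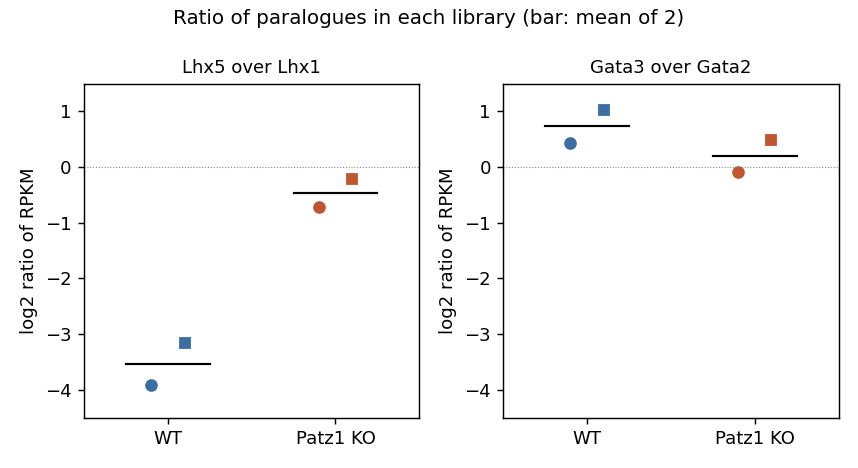
Log2 ratio of RPKM of *Lhx5* over *Lhx1* and of *Gata3* over *Gata2* in each library, with the mean of 2 libraries as a bar and a dotted line at equal levels. The *Lhx5* ratio goes from a mean of -3.54 in WT to -0.47 in *Patz1* KO, while the *Gata3* ratio overlaps between the groups.

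*Evx1*, the homeodomain factor of V0 commissural neurons, lies on chromosome 6 from 52313498 to 52318378, with a gap of 52.6 kb to *Hoxa13* at the posterior end of the *HoxA* cluster. Counts were 0 and 4 in WT against 29 and 11 in KO, so the groups did not overlap and WT was close to the detection limit. The log2 fold change was 2.82 (SE 0.746, adjusted p = 0.00457, edgeR quasi-likelihood). Summed over libraries, 4 WT and 40 KO counts give a ratio of 7.51 with a 95% exact counting interval from 2.71 to 28.9, which covers counting error only. Without WT replicate 1 the log2 fold change was 1.90 and the call was lost (adjusted p = 0.0993), and without KO replicate 1 the gene did not reach the filter. Its exons share 73 bases with the antisense gene *Evx1os*, listed in the files as *5730457N03Rik*, with counts of 4 and 0 in WT against 13 and 15 in KO. This antisense gene was singled out after its values were seen. It did not pass the filter, and without the filter its adjusted p was 0.0179 in edgeR, with 0.131 in DESeq2 and 0.00809 to 0.308 with each library left out. *Hoxa13* had 0 counts in all 4 libraries, and *Evx2*, the V0 paralogue of *Evx1*, had 2 counts in KO replicate 1 and 0 in the other 3.

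*En1*, the homeodomain factor that defines V1 inhibitory neurons, lies on chromosome 1 from 120602418 to 120607992. WT libraries held 10 and 9 of its reads and KO libraries 43 and 36, with no overlap between the groups. The level was 0.618 ± 0.0744 CPM in WT and 1.96 ± 0.263 CPM in KO (SD, n = 2 each). Its log2 fold change of 1.64 (SE 0.399, adjusted p = 0.00246) ranged from 1.52 to 1.79 on leaving out single libraries. *En1* is also a gene of the midbrain-hindbrain border. Of 5 markers of that border, *En2* alone was tested, and it was lower in KO (log2 fold change -0.94, adjusted p = 0.00896). The fall of *En2* was lost in DESeq2 (adjusted p = 0.059) and without WT replicate 1 (0.0516). The summed level of these 5 genes was 4.4 to 4.43 CPM in WT and 2.56 to 3.17 CPM in KO, and *En2* made up most of it. *Wnt1* (1 and 1 counts in WT, 5 and 9 in KO), *Pax5* (0 and 2, then 7 and 4) and *Otx2* (0 and 0, then 1 and 2) lay above WT in both KO libraries but were too low to be tested, and *Fgf8* had 0 counts in 3 of the 4 libraries.

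*Foxn4*, a forkhead factor of p2 progenitors that give rise to V2 neurons, lies on chromosome 5 from 114254164 to 114273807. Counts were 7 and 10 in WT and 14 and 11 in KO, and the groups overlapped in CPM. The log2 fold change was 0.15 (SE 0.504, adjusted p = 0.831). The sum of 17 WT and 25 KO counts gives a ratio of 1.1 with a 95% exact counting interval from 0.573 to 2.18, which covers counting error only. *Sox14*, an SRY-box factor of V2a neurons, lies on chromosome 9 from 99874106 to 99876170 with counts of 6 and 0 in WT and of 17 and 4 in KO. It did not pass the filter. Without the filter its log2 fold change was 1.34 (adjusted p = 0.228), and over 5 alternatives the adjusted p went from 0.0329 to 0.841. The low end came without WT replicate 1, which leaves a WT library at 0 counts.

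*Gata2* and *Gata3* encode zinc finger factors of inhibitory V2b neurons and are also used in blood, endothelium and surface ectoderm. *Gata2*, on chromosome 6 from 88193891 to 88207032, gave counts of 37 and 28 in WT and of 73 and 34 in KO, and the groups overlapped. Its log2 fold change was 0.28 (SE 0.312, adjusted p = 0.483), and without KO replicate 1 it was -0.06. *Gata3*, on chromosome 2 from 9857078 to 9890034, gave counts of 37 and 42 in WT and of 51 and 35 in KO. In CPM both KO libraries were lower, at 2.09 ± 0.012 against 2.56 ± 0.111 in WT (SD, n = 2 each), but the log2 fold change of -0.29 did not pass the test (SE 0.286, adjusted p = 0.425). The log2 ratio of *Gata3* to *Gata2* in RPKM was 0.44 and 1.03 in WT and -0.08 and 0.48 in KO, so the groups overlapped. *Gata3* shares 77 exon bases with *9230102O04Rik*, at 0 counts in both WT libraries and 2 and 3 in KO, and 155 with the antisense gene *Gm13256*.

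*Sim1*, a bHLH-PAS factor of excitatory V3 neurons, lies on chromosome 10 from 50894754 to 50989152. Counts were 206 and 213 in WT and 221 and 152 in KO, before scaling to library size. The level was 13.6 ± 0.306 CPM in WT and 9.08 ± 0.038 CPM in KO (SD, n = 2 each), and replicates lay close together. The log2 fold change was -0.58 (SE 0.149, adjusted p = 0.00374), with a range from -0.60 to -0.56 on leaving out single libraries. For *Sim1*, taken as the one of the 9 with the highest mean CPM, the genes with the most similar CPM pattern over the 4 libraries were *Sass6* (log2 fold change -0.59), *Cecr2* (-0.59) and *Cdk4* (-0.60). Their Euclidean distances to *Sim1* in centred log2 CPM were 0.0113, 0.0173 and 0.0212, against a median of 0.695 over all genes tested. These genes were picked for the smallest distances, so values far below the median follow from the choice.

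**Figure D3:**
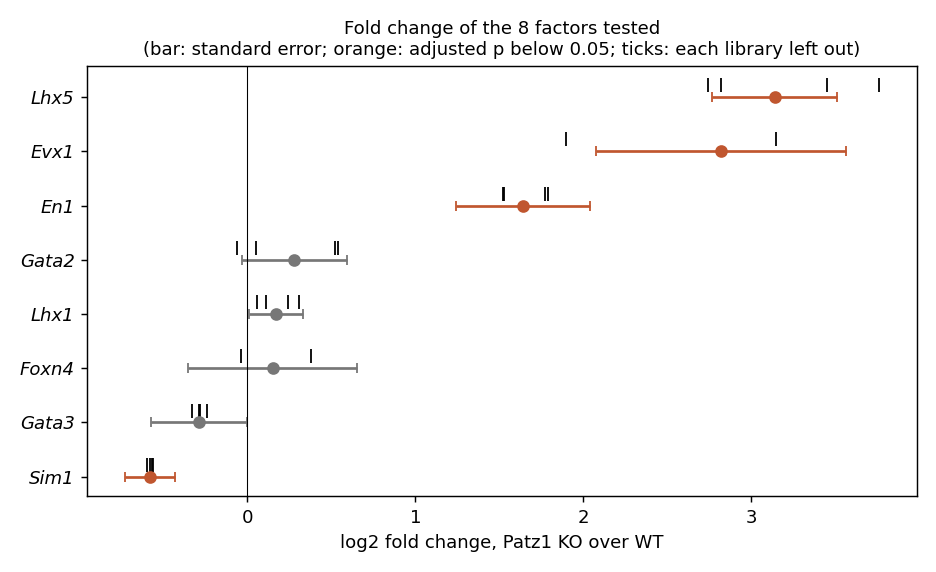
Log2 fold change (*Patz1* KO over WT) with its standard error for the 8 factors tested, in orange where the adjusted p was below 0.05. Black ticks give the value with each library left out, except for *Evx1* without WT replicate 2, where WT is at 0 counts. *Lhx5*, *Evx1* and *En1* lie to the right of 0 and *Sim1* to the left, with every tick on the same side of 0, while the ticks of *Gata2* and *Foxn4* fall on both sides.

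Per kilobase of exon, the order of the 9 genes in WT was led by *Lhx1* (2.49 ± 0.302 RPKM), *Sim1* (1.58 ± 0.0356), *Gata3* (0.644 ± 0.028) and *Gata2* (0.393 ± 0.0946; SD, n = 2). Each of these lay above the next gene in both libraries. *En1* (0.236 RPKM), *Lhx5* (0.227), *Foxn4* (0.163), *Sox14* (0.0975) and *Evx1* (0.0437) followed, and neighbours among them did not differ beyond their spread. In KO the order was *Lhx1* (2.81 ± 0.183 RPKM), *Lhx5* (2.08 ± 0.637), *Sim1* (1.05 ± 0.00441) and *En1* (0.747 ± 0.1; SD, n = 2), again each above the next in both libraries. *Gata3* (0.526 RPKM), *Gata2* (0.466), *Evx1* (0.322), *Sox14* (0.227) and *Foxn4* (0.183) followed with overlapping neighbours. *Lhx5* thus moved from rank 6 of 9 to rank 2. With the longest transcript in place of all exons, *Gata2* and *Gata3* changed places in KO, and *En1* there no longer lay above the next gene in both libraries.

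RefSeq promoter windows of GRCm38.p6, from 250 bases before to 50 bases after the start site, were at hand for 8 of the 9 genes, and *Lhx5* had no entry. They were searched on both strands for the G-rich motifs GGGAGGG, of the kind bound by the zinc finger protein MAZ, and GGGGAGGGG, which contains it. The shorter motif was in 1 of 9 windows (*Gata2* has 2 windows), against 22% of 32851 promoters of the same length, and the longer one in 0 of 9, against 6.37%. A match or its absence describes these letters only. The upstream sequences of *Evx1* (chr6:52313248-52313497, plus strand) and *En1* (chr1:120602237-120602417, plus strand), which rose and hold no match, and of *Gata2* (chr6:88193641-88193890, plus strand), which holds the one match, are shown 5′ to 3′ up to the first annotated exon base. Capitals mark the motif, read here on the minus strand.
Evx1 upstream: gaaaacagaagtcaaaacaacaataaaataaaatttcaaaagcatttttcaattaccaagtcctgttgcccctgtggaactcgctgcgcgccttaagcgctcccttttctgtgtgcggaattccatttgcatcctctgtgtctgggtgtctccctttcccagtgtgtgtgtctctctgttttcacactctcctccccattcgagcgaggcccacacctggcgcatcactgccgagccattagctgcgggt
En1 upstream: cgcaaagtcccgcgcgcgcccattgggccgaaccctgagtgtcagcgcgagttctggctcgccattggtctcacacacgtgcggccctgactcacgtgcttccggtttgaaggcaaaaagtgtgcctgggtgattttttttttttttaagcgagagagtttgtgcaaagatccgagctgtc
Gata2 upstream: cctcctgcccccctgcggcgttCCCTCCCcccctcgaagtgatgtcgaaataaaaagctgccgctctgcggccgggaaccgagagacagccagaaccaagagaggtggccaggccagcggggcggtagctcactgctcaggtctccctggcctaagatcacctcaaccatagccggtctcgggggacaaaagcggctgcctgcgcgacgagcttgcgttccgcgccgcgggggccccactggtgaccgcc

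Other factors of the same classes were read from the same fit. Of 19 listed V0 to V3 factors outside the 9 genes, 14 were tested, 7 were higher, 4 were lower and 3 did not pass, against 24.1% higher and 23.8% lower among all genes tested, with a median log2 fold change of 0.45. The same background applies to the lists that follow. For V1, *Foxd3* rose from 10 and 9 to 82 and 63 counts (log2 fold change 2.51, SE 0.35, adjusted p = 1.36e-05). *Foxp2*, found in a large share of V1 neurons and in some MNs, fell from 28.1 ± 5.13 to 10.5 ± 1.88 CPM (SD, n = 2 each; log2 fold change -1.43, adjusted p = 6.5e-07). *Pax2*, shared by V0 and V1 inhibitory neurons, was counted 5 and 0 times in WT and 16 and 5 times in KO and was not tested. *Pax8*, its paralogue, was counted 1 and 2 times in WT and 24 and 20 times in KO and was at least 5.6-fold higher, against a limit of 3 counts per WT library. *Pax8* passed the filter through the KO libraries alone, and *Foxd3* with 1 WT library below it.

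For V2, *Tal1*, which works in a complex with *Gata2* and *Gata3* products in V2b neurons, rose from 17 and 26 counts to 211 and 130 (log2 fold change 2.56, SE 0.256, adjusted p = 3.01e-07). The groups did not overlap. Whether this change differs from those of *Gata2* and *Gata3* was not tested. *Sox1*, kept on in V2c neurons and also a progenitor gene, rose from 14.1 ± 0.173 to 28.9 ± 1.03 CPM (SD, n = 2 each; log2 fold change 1.03). For V3, *Nkx2-2*, which marks p3 progenitors and early V3 neurons, rose from 6.96 ± 0.596 to 16.1 ± 0.0202 CPM (SD, n = 2 each; log2 fold change 1.21, adjusted p = 4.84e-06). *Uncx*, another V3 factor, had a log2 fold change of 0.26 (SE 0.299, adjusted p = 0.494). *Sim1* and *Nkx2-2* were thus called in opposite directions.

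**Figure D4:**
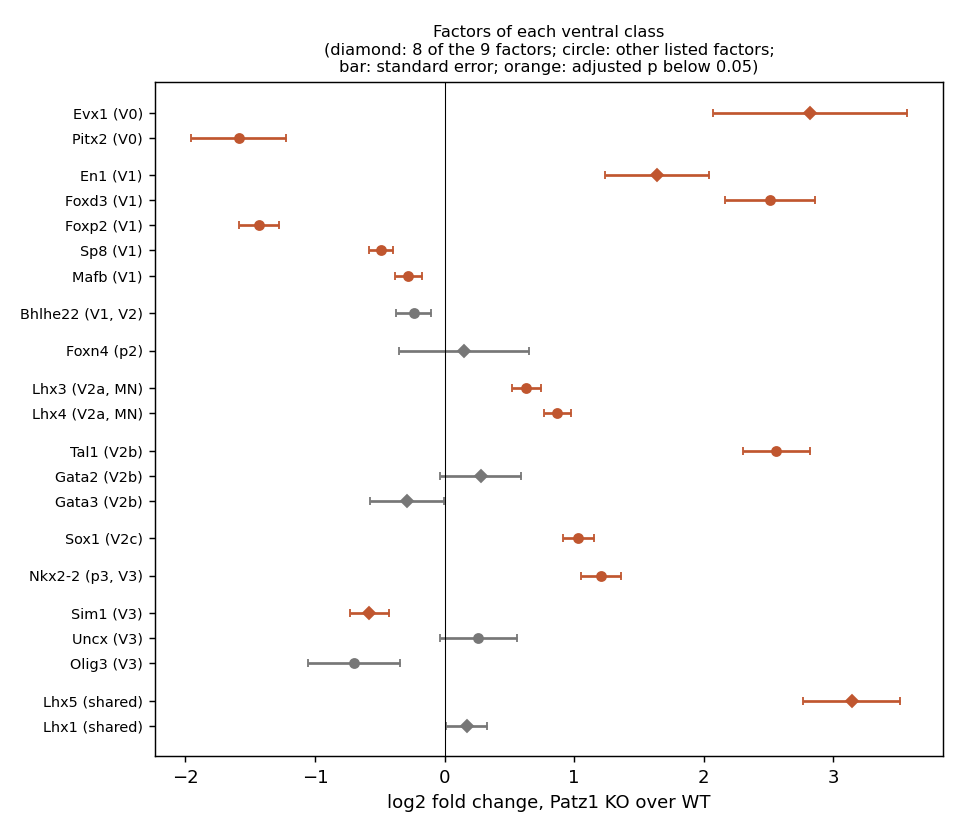
Log2 fold change (*Patz1* KO over WT) with its standard error for tested factors grouped by ventral class, with diamonds for 8 of the 9 genes and circles for other listed factors, in orange where the adjusted p was below 0.05. *Pax8* is left out because its WT libraries were at or under 3 counts. V1 holds genes on both sides of 0, with *Foxd3* at 2.51 and *Foxp2* at -1.43, and *Tal1* lies at 2.56 beside *Gata2* at 0.28 and *Gata3* at -0.29.

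Among 15 genes of the progenitor domains p0 to p3, 12 were tested, 7 higher and 2 lower (24.1% and 23.8% of all genes tested), with a median log2 fold change of 0.51. *Nkx6-2*, a homeobox gene of ventral progenitors, rose by 2.81 and *Nkx2-9*, a p3 gene, by 2.28 on the log2 scale, and *Pax6* fell by 1.05. Of 10 listed genes of the *Ldb*, *Lmo*, *Ssbp* families and *Rlim*, which belong to or act on the complexes of LIM homeodomain proteins, all were tested. Among them 5 were higher and 1 lower (median log2 fold change 0.40), with rises of *Ssbp4* (log2 fold change 1.48), *Lmo3* (1.18) and *Rlim* (0.63). The 1 lower gene was *Ldb2* (log2 fold change -1.35). Of 8 Notch genes, the pathway that splits V2a from V2b fate, 1 was higher and 4 were lower (median log2 fold change -0.23). The Notch effector *Hes5* fell by 0.99 and *Mfng* by 0.42 (call lost without WT replicate 1, adjusted p = 0.0512), and *Hes1* rose by 0.48 on the log2 scale. The count of 4 lower Notch genes was 1 without WT replicate 1, 2 without WT replicate 2, 2 without KO replicate 2 and 2 in DESeq2.

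Of 6 transmitter genes tested, 4 were higher and 0 lower, with a median log2 fold change of 1.68, and the count was 3 in DESeq2 and without WT replicate 1. Inhibitory transmission, which many V0, V1 and V2b neurons use, was represented by *Slc32a1*, *Slc6a5*, *Gad1* and *Gad2*. *Slc32a1*, the vesicular transporter of GABA and glycine, rose from 8 and 2 to 83 and 51 counts (log2 fold change 3.29, SE 0.451, adjusted p = 1.13e-05), with a log2 fold change of 4.62 without WT replicate 1 and 2.59 without WT replicate 2. The glycine transporter *Slc6a5* rose from 4 and 3 counts to 42 and 34 (log2 fold change 3.00) and *Gad1*, which makes GABA, from 9 and 8 to 59 and 51 (2.28). The groups did not overlap for these 3 genes. *Slc32a1* and *Slc6a5* were below the filter in both WT libraries and *Gad1* in 1, so they too entered the test through the KO libraries, where they were high. *Gad2*, the other GABA-making enzyme, had a log2 fold change of 0.37 (adjusted p = 0.3). Of the glutamate transporters, *Slc17a8* rose (log2 fold change 1.09, adjusted p = 0.0109), but its call was lost in DESeq2 (adjusted p = 0.0923). Its log2 fold change went from 0.89 to 1.35 on leaving out single libraries. *Slc17a6* had a log2 fold change of 0.24 (adjusted p = 0.478). Among 14 dorsal interneuron factors, 6 were tested, 2 higher and 1 lower. They were *Foxd3*, *Dmrt3* of dI6 neurons (log2 fold change 1.43) and *Wt1*, which fell from 44 and 79 counts to 3 and 4 and is also a kidney gene. *Tlx1* and *Ptf1a* had 0 counts in all 4 libraries.

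Markers of the labelled cell type and of other tissues moved as well. Of 9 MN markers, 8 were higher and 0 lower, against 24.1% and 23.8% of all genes tested. *Mnx1* went from 774 and 805 to 2383 and 1525 counts (log2 fold change 0.88), *Chat* rose by 0.99, *Lhx3* by 0.63 and *Prph* by 1.33 on the log2 scale, and *Isl1* had a log2 fold change of -0.19 (adjusted p = 0.0768), which was called lower without KO replicate 2 (-0.25, adjusted p = 0.00631). The summed level of the MN markers was 634 to 680.1 CPM in WT and 999.9 to 1100 CPM in KO. That of the transmitter genes was 6.98 to 7.67 and 16.5 to 16.6 CPM.

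Of 13 blood and endothelium markers, 8 were tested, 2 higher (*Tal1* and *Lmo2*) and 4 lower, *Cdh5* among them (log2 fold change -2.44, or -3.43 without KO replicate 1). Their sum was 23.3 to 24 CPM in WT and 27.2 to 30.9 CPM in KO. It pools the 4 falls with the rises of *Tal1* (mean 1.39 CPM in WT and 8.22 CPM in KO) and *Lmo2* (4.05 and 7.53 CPM). *Gata1*, which defines red cells, was counted 1 and 0 times in WT and 0 times in both KO libraries. Of 7 endoderm markers, 6 were lower, with the smallest p for *Foxa2* (log2 fold change -2.35), *Foxa1* (-2.86) and *Gata4* (-3.49). The largest fall was that of *Gata6* (-3.55). The sum went from 53.4 to 59 CPM in WT to 8.62 to 10.8 CPM in KO. Most of it was *Foxa2* (mean 28.2 CPM in WT and 5.56 CPM in KO) and *Foxa1* (12.5 and 1.74 CPM). Whether the reads of *Foxa2* and *Foxa1* came from endoderm cells was not tested. Of 8 trophoblast and surface ectoderm markers, 3 were tested and lower, *Krt8* (-3.43), *Krt18* (-3.46) and *Tfap2c*. The list summed to 38.4 to 41.5 CPM in WT and 3.59 to 4.59 CPM in KO. *Krt8* (mean 21.1 CPM in WT) and *Krt18* (17.1 CPM) made up most of the sum, and the markers not tested were too low for it. Which cells the keratin reads came from was not tested. *Tfap2c* was lower at least 4.95-fold against a limit of 3 counts per KO library, and its call was lost in DESeq2 (adjusted p = 0.0564), without WT replicate 1 (0.0511) and without KO replicate 1 (0.0636). Of 6 intermediate mesoderm and kidney markers, 4 were tested, 3 lower, among them *Wt1* (-4.48) and *Osr1* (-4.20), and *Pax8* higher, with sums of 15 to 17.8 and 4.08 to 5.48 CPM. *Gata4*, *Tfap2c*, *Wt1* and *Osr1* passed the filter through the WT libraries alone. None of the 4 hindbrain serotonergic markers was tested, *Fev* was at 0 counts, and the sum was 0.943 to 1.21 and 0.495 to 0.596 CPM. Of 4 pluripotency markers, 2 were tested and 0 called, *Nanog* with a log2 fold change of -0.70 (adjusted p = 0.0551, and from 0.000352 to 1 over the alternatives) and *Zfp42* with 0.46 (0.298), at sums of 6.04 to 7.17 and 4.99 to 6.2 CPM. The part of these tissues in the values of the 9 genes was not tested.

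**Figure D5:**
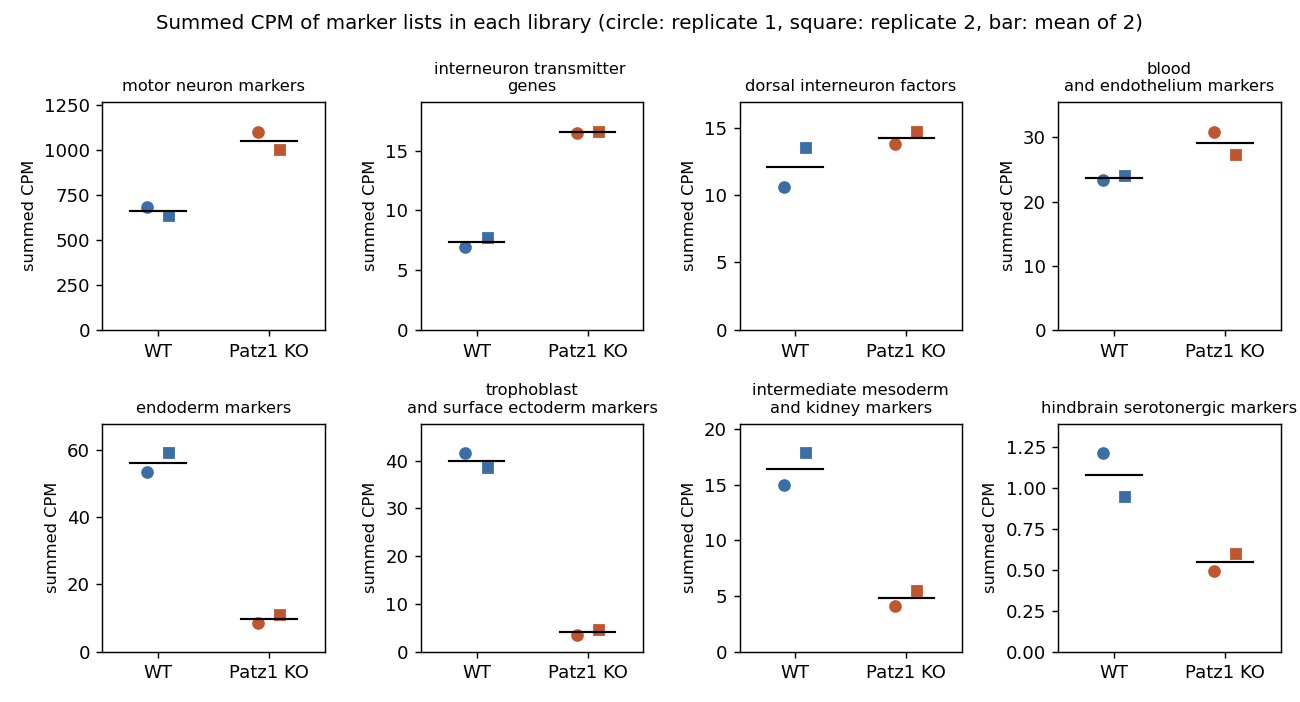
Summed CPM of 8 marker lists in each WT and *Patz1* KO library (linear axes from 0), with the mean as a bar. MN markers and interneuron transmitter genes lie higher in both KO libraries, and endoderm, trophoblast and kidney markers lie lower. *Foxa2* and *Foxa1* make up most of the endoderm sum, and *Krt8* and *Krt18* most of the trophoblast and surface ectoderm sum. The sum of blood and endothelium markers lies between 23.3 and 30.9 CPM throughout, and it pools the rise of *Tal1* with markers that fell.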

How the data were processed

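The deposited files hold raw read counts per gene symbol, 1 file per library. The authors mapped reads of stranded, ribosome-depleted total RNA libraries to mm10 with Bowtie 2. The submitters' processing notes list TopHat2 2.1.1, Bowtie2 2.3.1, featureCounts 1.6.2 and DESeq2. The annotation and strand setting are not given in the sources used here. The paper calls biological replicates independent differentiation experiments.

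Counts of all 4 libraries were filtered with filterByExpr (minimum count 10), normalized with TMM and tested over 14269 genes with edgeR 4.0.16 (limma 3.58.1, R 4.3.3), quasi-likelihood test, Benjamini-Hochberg adjustment over all genes tested, threshold 0.05. Standard errors are the absolute log2 fold change over the square root of F. DESeq2 1.42.0 was an alternative, although it is the test of the study's methods. Positions and exon lengths came from GENCODE M21 on GRCm38. Other steps used Python 3.11.15, numpy 2.4.6, pandas 2.3.3 and matplotlib 3.10.9. A group at or under 3 counts in each library was taken as the detection limit.

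1 listed gene is not reported here and is left out of all list counts. Genes, lists and motifs were chosen with earlier results of these data known. Named from each list were at most the 3 genes with the smallest p, plus partners of the 9 genes and MN markers set by name. *Evx1os*, *9230102O04Rik*, *Hoxa13*, *Fgf8*, *Wnt1*, *Pax5*, *Otx2*, *Ldb2*, *Gad2*, *Slc17a6*, *Slc17a8*, *Gata6*, *Gata1*, *Tlx1*, *Ptf1a* and *Fev* were named after their values were seen. The alternatives were other scalings, filters and tests, robust estimation, a minimum fold change, the replicate number as a block and leaving out each library.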

Additional observations from a re-analysis of the deposited data

How the results depend on the processing

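With 2 libraries per group, factors under about 10 counts are the least certain. A minimum of 10 counts in every library left 0 of the 9 genes called higher, because *Evx1*, *En1* and *Lhx5* then fell out of the test. Testing against an absolute log2 fold change of at least 1 left 1 called higher (*Lhx5*) and 0 lower, with 274 genes higher and 444 lower among all tested. With each library left out in turn, 2346 to 3985 genes were called higher and 2175 to 3831 lower, and 2 to 3 of the 9 genes higher and 1 lower. In these fits a group with 1 library is assumed to vary like the other. Without WT replicate 1, *Foxn4* changed sign to -0.04 (0.38 without WT replicate 2), *Evx1* was not called and *Sox14* was. Without *Patz1* KO replicate 1, *Gata2* changed sign to -0.06 (0.54 without WT replicate 1). Over the alternatives, 94 of the fold changes of the 9 genes kept direction and side of the threshold, 4 lost the call, 1 gained it and 2 changed sign, and of the other named genes 470 kept both, 22 lost the call, 10 gained it and 0 changed sign. DESeq2's Wald test called the same 4 genes as edgeR, with adjusted p = 1.28e-08 for *Lhx5*. In that test *Evx1* (adjusted p = 0.0475), *En1* (0.0325) and *Sim1* (0.0321) lay near the threshold of 0.05. The largest shift of the median of all genes under another scaling was -0.030, with library size alone.

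With the replicate number as a block, 3712 genes were called higher and 3651 lower, and 3 and 1 of the 9 genes. Deviations from the group means correlated at 0.0304 between libraries of equal number, so the numbers were not taken to pair the cultures, and the replicate block is given here only.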
